A study of Mus musculus with 6 samples.

Results

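The genes described here encode the folding and degrading machinery for proteins inside mitochondria. They were the 10 genes Hspd1, Hspe1, Hspa9, Lonp1, Clpp, Clpx, Yme1l1, Afg3l2, Spg7 and Htra2, taken as every probe set whose gene symbol in the array's annotation is exactly one of these names. All 10 were on the array, with 24 of its 45101 probe sets, among 18193 genes named by at least 1 probe set of a single gene. RNA was measured in olfactory epithelium microdissected from 3 Harlequin males (genotype Hq/Y on the B6CBACAw-J/A-Pdcd8-Hq/J strain) and 3 littermate control males (+/Y on B6CBACa), all 6 months old, with 1 Affymetrix array for each mouse. Harlequin is a mutation of Aifm1, a gene on the X chromosome once called Pdcd8, and lowers its product, apoptosis-inducing factor, in all tissues. The stated aim was to look for mechanisms of neurodegeneration under oxidative stress. The strain names differ between the groups, so genotype and any difference in strain background cannot be told apart.

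Most mitochondrial proteins are made in the cytosol, threaded through the membranes unfolded and folded again inside. Hspa9 pulls them into the matrix, the Hspd1 and Hspe1 chaperonin encloses and folds them, and the proteases Lonp1, Clpp with Clpx, Yme1l1, Afg3l2 with Spg7, and Htra2 remove those that fail. When misfolded proteins accumulate in the matrix, mammalian cells can raise the genes of these chaperones and proteases, a programme called the mitochondrial unfolded protein response, in which the transcription factors Atf4, Atf5 and Ddit3 take part. Apoptosis-inducing factor is a flavoprotein of the mitochondrial intermembrane space needed for normal levels of respiratory complex I.

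Hspd1 and Hspe1 lie head to head and share a promoter, and Lonp1 stood highest among the members in the comparison below, so the sequences in front of these genes are shown first. Both come from RefSeq (GRCm38.p6). The first runs from the base after one Hspd1 start to the base before the Hspe1 start, 215 bases at chr1:55087933-55088147, read on the plus strand. Another Hspd1 start in that table lies beyond the stretch, at base 55088243. The second holds the 250 bases before the Lonp1 start, chr17:56626904-56627153, read on the minus strand. Capitals mark matches to the motifs named below.
Hspd1-Hspe1 stretch: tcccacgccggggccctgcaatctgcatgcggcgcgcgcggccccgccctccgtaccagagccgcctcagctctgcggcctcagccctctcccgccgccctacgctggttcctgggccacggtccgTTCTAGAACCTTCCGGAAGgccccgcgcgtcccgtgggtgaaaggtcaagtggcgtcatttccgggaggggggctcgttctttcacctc
Lonp1 upstream: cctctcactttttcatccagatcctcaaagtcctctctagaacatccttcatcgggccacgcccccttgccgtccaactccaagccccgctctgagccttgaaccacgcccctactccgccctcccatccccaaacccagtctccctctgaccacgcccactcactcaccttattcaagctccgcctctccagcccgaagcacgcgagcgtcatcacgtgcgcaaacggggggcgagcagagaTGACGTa

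Heat shock elements, the sites of the heat shock factor, are inverted repeats of GAA, searched here as GAANNTTC and TTCNNGAA. The capital run between Hspd1 and Hspe1 holds 1 match to GAANNTTC (bases 132 to 139 of the stretch) and 2 to TTCNNGAA (bases 127 to 134 and 137 to 144), each overlapping the GAANNTTC match. The run also holds 2 overlapping matches to the ETS core CCGGAAG, 1 on each strand. Among 32851 RefSeq promoter windows of 300 bases, 250 before and 50 after a start, GAANNTTC occurred in 7.86%, TTCNNGAA in 8.52% and CCGGAAG, on either strand, in 8.86%. The upstream bases of Lonp1 hold 1 match to the cyclic AMP response element core TGACGT (bases 244 to 249), which either strand of 7.51% of windows also holds. The C/EBP-ATF composite letters TGATGNAA, on either strand, were in 3.97% of all windows and in 0 of the 8 windows of the 7 members searched (Hspd1, Hspe1, Yme1l1, Spg7, Clpx, Lonp1 and Clpp). Hspa9 and Afg3l2, both on chromosome 18, were left out of the search, and Htra2 had no window. The matches describe letters only.

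The tissue and genotype labels were checked before the members. Omp, the classical marker of mature olfactory neurons, averaged 17458 ± 1475 in Harlequin and 16887 ± 479 in controls (SD, n = 3 each), and the olfactory transduction genes Gnal (14391 against 14019) and Cnga2 (12686 against 12318) were likewise bright in both genotypes. Aifm1 fell to 21.2% of the control signal in Harlequin (log2 fold change -2.20, SE 0.18, limma adjusted p = 0.0158), with 335.4, 221.1 and 211.2 in Harlequin and 1239.9, 1255.6 and 1128.2 in controls. Its call was lost without control replicate 1, 2 or 3, in limma without an intensity trend (adjusted p = 0.0887) and with the replicate number as a block (0.0605). Median signals of whole arrays lay between 109.6 and 113.4 in Harlequin and between 107.9 and 119.7 in controls. Because the tissue is a mixture of cells, fewer cells of a type and less RNA per cell cannot be told apart in any value below.

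None of the 10 genes passed the test between the genotypes. In limma, fitted over 13219 genes, 0 of the 10 had an adjusted p under 0.05, against 0.0303% of all genes tested, and the smallest adjusted p among them was 0.981. At an unadjusted p under 0.05 there was 1 member, Lonp1, against 4.58% of all genes. Of the 10 differences, 6 were positive and 4 negative, and their median on the log2 scale was 0.03, where the median over all genes was 5.17e-05 and 50.0% of genes were positive. At the brightest probe set of each gene, the 95% intervals of the 10 genes reached no further than 0.733-fold at the low end and 1.54-fold at the high end. Both are on the scale of intensity plus 16.

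**Figure D1:**
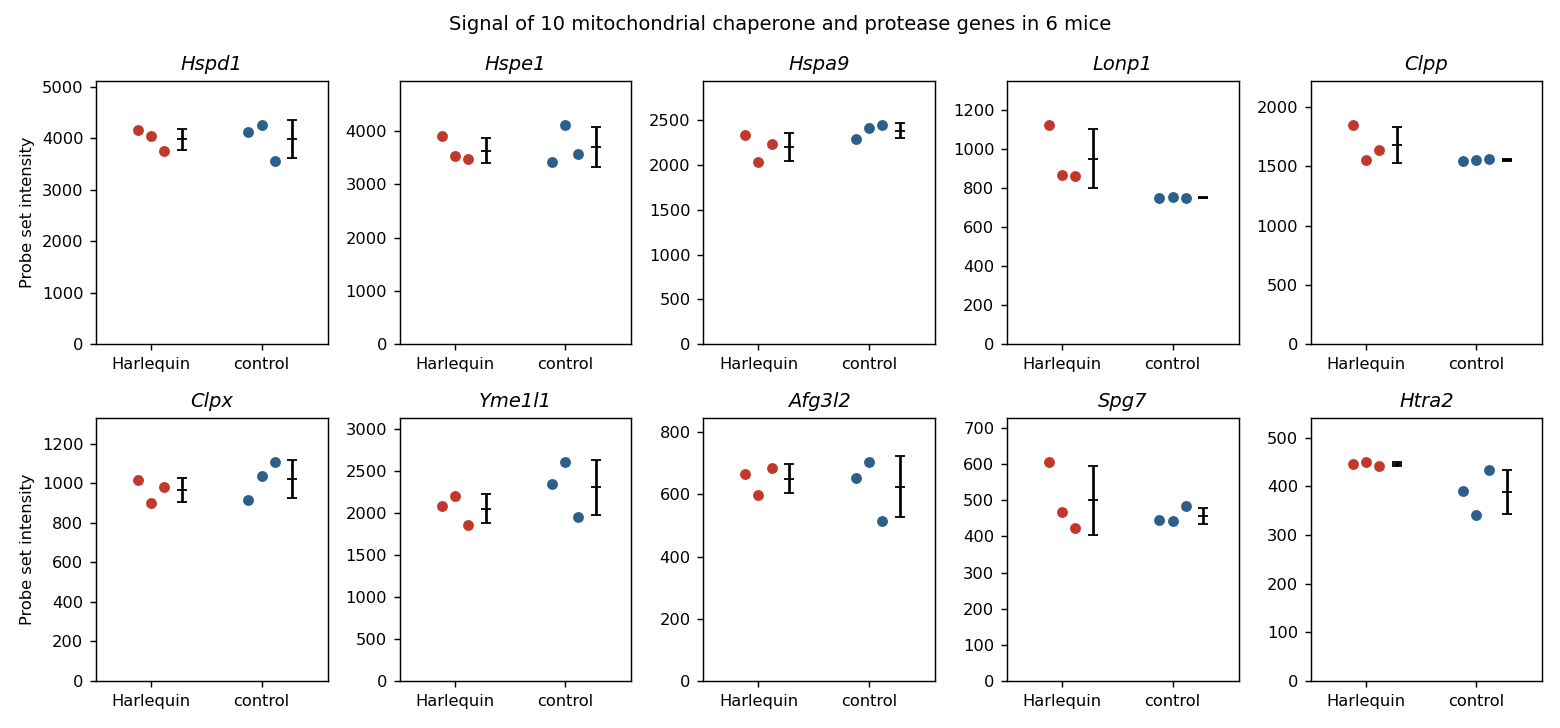
Probe set intensity of each gene at its brightest probe set (vertical axes, linear, starting at 0) in 3 Harlequin mice (red, left) and 3 control mice (blue, right), with the mean and SD of each group beside the points. The groups overlap for 8 genes, while Lonp1 and Htra2 have all Harlequin points above all control points, and levels should not be compared between panels.

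With each member at its brightest probe set, the genes of the chaperonin showed the smallest differences. Hspd1, the chaperonin that forms the folding cage, gave 4157.3, 4038.3 and 3749.4 in Harlequin and 4130.1, 4261.5 and 3565.4 in controls. Harlequin was thus at 99.9% of the control mean, and the log2 difference was 0.0015 (SE 0.094, 95% interval -0.21 to 0.22, limma adjusted p = 0.999). Hspe1, the lid of that cage, gave 3903.5, 3529.1 and 3470.3 in Harlequin and 3409.2, 4114.7 and 3576.3 in controls at its brighter probe set. Its lowest and its highest arrays were both controls, and the log2 difference was -0.02 (95% interval -0.25 to 0.20). The dimmer Hspe1 probe set, with 1168.0, 960.0 and 1161.4 in Harlequin and 967.5, 1204.5 and 880.3 in controls, differed by 0.11 (-0.22 to 0.44) and overlapped too. At the brightest probe sets the intervals allow changes of up to 1.16-fold upward for Hspd1 and 1.15-fold for Hspe1, and of down to 0.863-fold and 0.843-fold. The interval of the dimmer Hspe1 probe set allows a larger change upward. The RefSeq table lists 5 further genes named after Hspd1 and 7 named after Hspe1, mostly pseudogenes, and whether the probes also match those was not tested.

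Hspa9, the mitochondrial Hsp70 that drives import, gave 2341.1, 2031.5 and 2238.6 in Harlequin and 2292.2, 2414.0 and 2450.3 in controls at its brightest probe set. The groups overlapped through Harlequin replicate 1, and the log2 difference was -0.12 (95% interval -0.32 to 0.09, adjusted p = 0.981). The next brightest of its 5 probe sets pointed the other way, with 1816.7, 1699.9 and 1974.9 in Harlequin and 1539.1, 1689.9 and 1747.9 in controls and a log2 difference of 0.14 (-0.09 to 0.37). Of the remaining 3, the dim probe sets 1431274_a_at and 1447728_x_at differed by -0.10 and 0.11, and 1453811_at, at 6.2 to 40.4 in Harlequin and 6.2 to 56.7 in controls, lay under the filter on low signal and was not tested.

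Among the proteases of the matrix, Lonp1 was the member with the largest difference. Lonp1, an ATP-driven serine protease that degrades oxidised and misfolded proteins, gave 1122.7, 865.1 and 859.8 in Harlequin and 749.1, 751.6 and 747.6 in controls at its only probe set. Every Harlequin mouse lay above every control, and the 3 controls lay between 747.6 and 751.6. Means were 949.2 ± 150.3 in Harlequin and 749.4 ± 2.02 in controls (SD, n = 3 each), so that the Harlequin mean was 127% of the control mean. The fold fitted on the scale of log2(intensity + 16) was 1.25 (log2 difference 0.32, SE 0.13, 95% interval 0.03 to 0.62), with an unadjusted p of 0.0355 and a limma adjusted p of 0.981. The exact permutation p, two-sided, was 0.10, and 3 against 3 arrays allow none smaller. Without Harlequin replicate 1 the log2 difference was 0.20 (unadjusted p = 0.125), and without any other array it lay between 0.32 and 0.39. By the size of the unadjusted p, 410 of the 13219 genes ranked before Lonp1.

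Clpp, the peptidase ring that cuts unfolded chains, gave 1847.6, 1551.3 and 1638.8 in Harlequin and 1546.6, 1550.5 and 1557.0 in controls. Harlequin replicate 2 fell inside the narrow control range, and the log2 difference was 0.11 (95% interval -0.11 to 0.33, adjusted p = 0.982), or 0.039 without Harlequin replicate 1. The second Clpp probe set gave 1165.6, 977.4 and 1075.8 in Harlequin and 992.2, 997.7 and 930.8 in controls, a difference of 0.14 (-0.12 to 0.39), so both Clpp probe sets pointed upward and overlapped through the same mouse. Clpx, the unfoldase that feeds Clpp, gave 1018.6, 898.8 and 980.2 in Harlequin and 917.0, 1036.2 and 1109.4 in controls at its brighter probe set, a log2 difference of -0.08 (-0.34 to 0.18). Its dimmer probe set pointed upward (0.18, 95% interval -0.18 to 0.53), with 209.6, 231.3 and 274.8 in Harlequin and 207.9, 209.6 and 205.4 in controls, where Harlequin replicate 1 and control replicate 2 had the same value.

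The proteases of the inner membrane are rings of AAA subunits with a zinc-dependent active site. Yme1l1, which faces the intermembrane space and cleaves the fusion protein Opa1, gave 2078.7, 2199.9 and 1858.8 in Harlequin and 2341.6, 2607.0 and 1952.1 in controls at its brightest probe set. The groups overlapped, and the log2 difference was -0.16 (95% interval -0.45 to 0.12, adjusted p = 0.981). With 1 array left out it ran between -0.27 (without control replicate 3) and -0.067 (without control replicate 2), and it was -0.094 without Harlequin replicate 3. Afg3l2, the subunit common to both forms of the matrix-facing protease, gave 667.5, 598.8 and 686.7 in Harlequin and 652.9, 705.9 and 515.3 in controls (log2 difference 0.07, -0.26 to 0.40). All 3 Harlequin values of Afg3l2 lay within the control range. Spg7, paraplegin, the partner subunit of Afg3l2 and a gene of hereditary spastic paraplegia in humans, gave 607.1, 468.0 and 423.7 in Harlequin and 444.3, 443.2 and 483.2 in controls (0.11, -0.24 to 0.46). Its highest and its lowest mouse were both Harlequin, and without Harlequin replicate 1 the difference was -0.03. The other Afg3l2 probe sets differed by -0.03 at 1427206_at, while 1454003_at, between 5.9 and 93.0 over all arrays, and 1441585_at of Spg7, between 6.1 and 15.1, lay under the filter.

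Htra2 is a serine protease of the intermembrane space that, once released into the cytosol, binds inhibitors of apoptosis. At its brighter probe set it gave 444.9, 450.7 and 441.3 in Harlequin and 389.9, 341.9 and 432.8 in controls. The Harlequin mice lay close together and just above the highest control, and the log2 difference was 0.20 (SE 0.13, 95% interval -0.10 to 0.50), with an unadjusted p of 0.168 and a limma adjusted p of 0.981. The second probe set, of nearly the same brightness, overlapped, with 396.1, 562.7 and 380.5 in Harlequin and 391.7, 382.7 and 399.3 in controls (0.16, -0.22 to 0.54). There Harlequin replicate 2 alone stood above the controls. In the RefSeq table the Htra2 gene overlaps Loxl3 and Aup1, and whether those transcripts reach these probe sets was not tested. Lonp1 and Htra2 made 2 of 10 members whose Harlequin values all lay above the controls, against 5.02% of all genes. All below lay 0 of 10, and in either direction 10.4% of all genes had no overlap.

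Markers of other cell types were summed per array. Of the erythroid list 4 of 6 genes had a probe set annotated to that gene alone, and 3 passed the filter. The summed signal of this list ran between 2849.1 and 3722.8 in Harlequin mice and between 697.7 and 1949.4 in control mice, without overlap. Every other marker list overlapped in summed signal, and among single genes 10.4% had no overlap. The summed signals of 8 neutrophil and marrow granulocyte genes, at 39488.5 to 59410.5 in Harlequin and 21554.0 to 52689.3 in controls, and of 7 macrophage genes, at 4297.5 to 5109.8 in Harlequin and 3692.5 to 4446.6 in controls, overlapped. All 8 neutrophil and granulocyte genes had positive log2 differences (median 0.57), and 0 of 7 fibroblast and matrix genes had one (median -0.52), with summed signals of 19478.3 to 37851.3 in Harlequin and 25372.4 to 40149.3 in controls. Hba-a1, with the lowest mean of the erythroid markers at 25.3 in a probe set annotated to it alone, was under the filter. Probe sets annotated to several genes were counted for no marker. Of these lists 0 genes passed limma. Their part in the differences of the members was not tested. Harlequin replicate 1 was the highest of the 6 arrays for 3 members (Lonp1, Clpp and Spg7) and the lowest for 0, and control replicate 2 was the highest for 4 and the lowest for 1. Averaged over the members, the log2 deviation from each gene's mean was 0.129 on Harlequin replicate 1. On the other arrays it lay between -0.050 (control replicate 3) and 0.025 (control replicate 2).

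Probe sets of the same gene often pointed in different directions. Of the 24 probe sets 21 passed the filter, and at those 14 differences were positive and 7 negative (median 0.11, where the median over 27022 probe sets was -0.0035). In limma over all these probe sets 0 of 21 passed, against 0.0259% of all, the smallest adjusted p was 0.985, and 1 had an unadjusted p under 0.05, against 4.70% of all. In 5 of the 7 genes with more than 1 probe set above the filter (Hspe1, Hspa9, Clpx, Yme1l1 and Afg3l2) both signs occurred. Yme1l1 showed the widest spread, with -0.16 at its brightest probe set, 0.14 at 1450954_at, 0.21 at 1423360_at and -0.03 at the dim 1437822_at. At 1423360_at only Harlequin replicate 3 and control replicate 1 overlapped, with 479.7, 461.0 and 423.3 in Harlequin and 424.4, 398.5 and 354.2 in controls. In the RefSeq table Yme1l1 overlaps Mastl, Clpx overlaps Gm16218, and Hspa9 overlaps Gm22200 and Gm26109. That table also lists Hspa9-ps1. Whether any of these transcripts reach the probe sets was not tested.

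**Figure D2:**
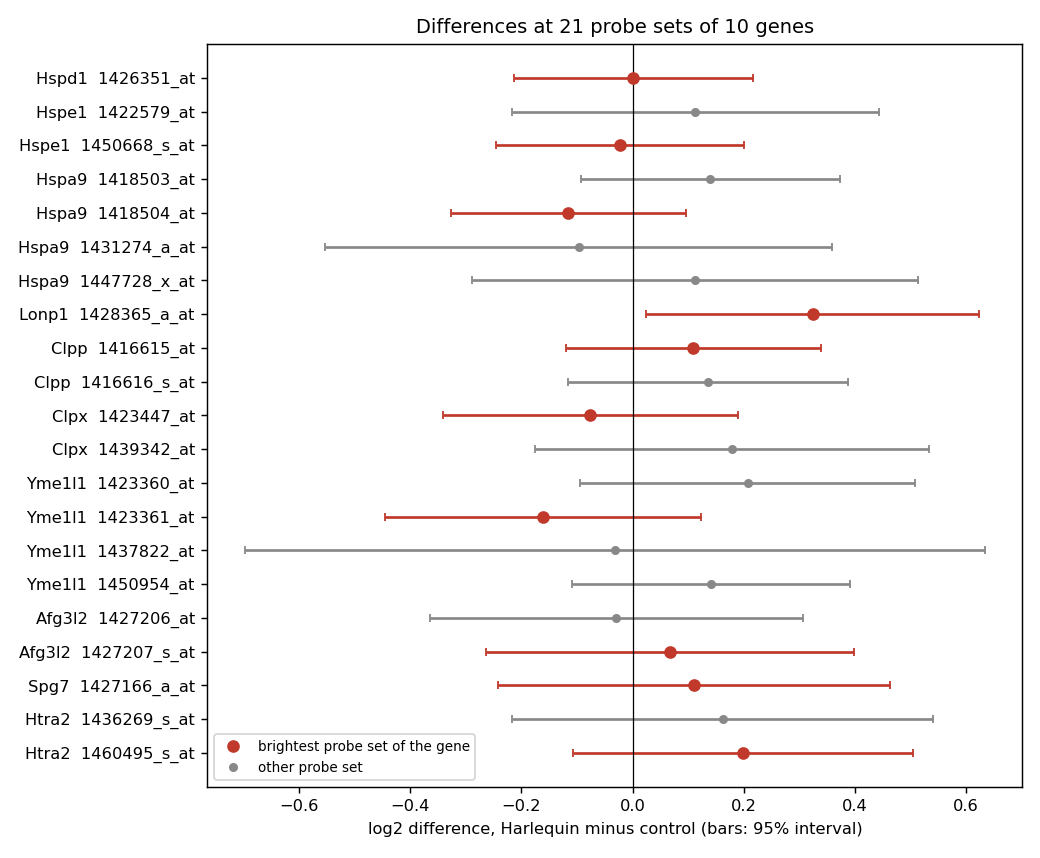
Log2 difference between the genotypes, Harlequin minus control (horizontal axis), at the 21 probe sets above the filter, with 95% intervals from the fit over all probe sets. Red points are the brightest probe set of each gene and grey points the others; only the interval of Lonp1 leaves out 0, and the Yme1l1 points run from -0.16 to 0.21.

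A plain ratio of intensities within an array does not depend on how that array was scaled as a whole. The ratios here were of intensity plus 16, so some dependence on scaling remained, most where a probe set was dim. They were examined after these values had been seen. Over the 7 genes there were 17 pairs of probe sets, and limma on the log2 ratios of all 17190 such pairs on the array called 0 of them, against 0.0233% of all pairs, with 1 of 17 at an unadjusted p under 0.05, against 5.56%. In 3 of the 17 the ratio did not overlap between the genotypes, against 11.0% of all pairs. The ratio of Yme1l1 probe set 1423361_at to 1423360_at was 4.23, 4.65 and 4.27 in Harlequin and 5.35, 6.33 and 5.32 in controls (log2 difference -0.37, 95% interval -0.70 to -0.04, adjusted p = 0.882). Against 1450954_at the same probe set gave 1.20, 1.17 and 1.04 in Harlequin and 1.50, 1.41 and 1.30 in controls (-0.30, -0.62 to 0.02). For Hspa9 the ratio of 1418504_at to 1418503_at was 1.29, 1.19 and 1.13 in Harlequin and 1.48, 1.42 and 1.40 in controls (-0.26, -0.56 to 0.05, adjusted p = 0.888). In each of these 3 pairs the brightest probe set was lower in Harlequin relative to its partner, and the first 2 pairs share a probe set.

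**Figure D3:**
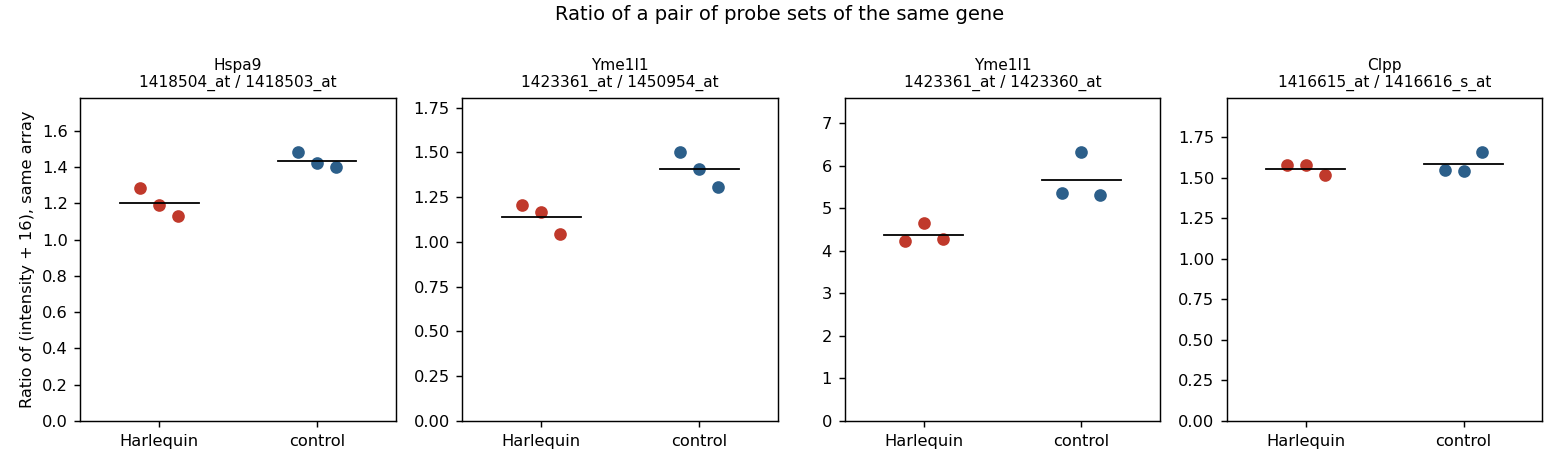
Ratio of intensity plus 16 between probe sets of the same gene on the same array (vertical axes, starting at 0) in 3 Harlequin mice (red, left) and 3 control mice (blue, right), with lines at the means. The Hspa9 and both Yme1l1 pairs are those of 17 without overlap between the genotypes, and the Clpp pair, which overlaps, is drawn beside them for comparison.

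Genes that act as partners in a complex were compared across the 6 arrays. The Pearson correlation of log2 signals was 0.52 for Hspd1 with Hspe1 (Spearman 0.49, exact permutation p = 0.269 and 0.356). It was 0.18 for Clpp with Clpx (Spearman 0.26, exact p = 0.678 and 0.658) and -0.11 for Afg3l2 with Spg7 (Spearman -0.60, exact p = 0.631 and 0.242). Over these 3 pairs the adjusted p values were 0.533 or more. Taken as deviations from the mean of each genotype, r was 0.53, 0.53 and -0.21 for the same pairs, and without the 2 arrays farthest from the median of the first gene it was 0.80, 0.75 and -0.33 over 4 arrays. None of the 3 relations was detectable with 6 arrays, and all points share their array's scaling.

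Further genes were listed by role, in 4 mitochondrial lists (co-chaperones, other proteases, their scaffolds and import), 1 of stress regulators and 1 of chaperones of the cytosol and endoplasmic reticulum. Of the 73 genes 68 had a probe set annotated to that gene alone and passed the filter. In limma over all genes 0 of them passed, against 0.0303% of all genes. At an unadjusted p under 0.05 there was 1, against 4.58% of all genes. The 4 mitochondrial lists held 43 of the 68, with 26 differences positive, 17 negative and a median of 0.04. Of the 43, 5 had no overlap between the genotypes, all 5 higher in Harlequin. Among all genes 10.4% had no overlap, and 5.02% had none and were higher in Harlequin. Over all 68 genes 38 differences were positive and 30 negative (median 0.0098), and 10 had no overlap, against 10.4% of all genes in either direction. Of those 10, 7 were higher in Harlequin. The 3 that were lower all belong to the 14 tested chaperones of the cytosol and endoplasmic reticulum. Co-chaperones and assembly factors (9 genes) had a median of 0.0100. By log2 difference Bcs1l, which inserts the Rieske protein into complex III, was at 0.25, the disaggregase Clpb at 0.19 and the nucleotide exchange factor Grpel2 at 0.12. Grpel2 gave 972.8, 952.9 and 1070.0 in Harlequin and 905.3, 912.4 and 927.2 in controls, without overlap. The 19 import genes had a median of -0.01, between -0.11 for Tomm7 and 0.20 for Timm21, with Timm50 at 0.18.

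Other mitochondrial proteases (13 genes) had the highest list median, 0.09, with 10 positive and 3 negative. Afg3l1, another subunit of the m-AAA family that is active in mice and a pseudogene in humans, gave 329.3, 257.8 and 251.5 in Harlequin and 201.1, 225.2 and 219.4 in controls. Its groups did not overlap, and the log2 difference of 0.35 (SE 0.16, 95% interval -0.02 to 0.71) had an unadjusted p of 0.0596 and an adjusted p of 0.981. Lactb (0.28) and Atp23 (0.29) overlapped. The scaffold genes Stoml2 and Phb2, whose products hold proteases in the inner membrane, differed by 0.06 and 0.0067.

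Regulators of mitochondrial and integrated stress responses (11 genes) had a median of 0.03, with 7 positive and 4 negative. Atf4, the transcription factor translated when the integrated stress response is on, gave 5354.7, 5162.8 and 4890.1 in Harlequin and 4558.9, 4674.8 and 4691.9 in controls, without overlap (log2 difference 0.14, SE 0.07, unadjusted p = 0.0792, adjusted p = 0.981). Ddit3, its partner and target, gave 1730.9, 1725.9 and 1426.9 in Harlequin and 1392.6, 1598.8 and 996.9 in controls and overlapped (0.31). Atf5 averaged 14159 in Harlequin and 14029 in controls and overlapped (log2 difference 0.0095). Foxo3, a stress-responsive forkhead factor, gave 2201.3, 2301.9 and 2168.4 in Harlequin and 1901.2, 1654.3 and 2022.1 in controls (0.26, 95% interval 0.03 to 0.49, unadjusted p = 0.0309, adjusted p = 0.981). Chaperones of the cytosol and endoplasmic reticulum (14 genes) had a median of -0.03, with 5 positive and 9 negative. Among them Hsp90aa1, the inducible cytosolic Hsp90, gave 12944.8, 13347.4 and 11371.1 in Harlequin and 13633.3, 15207.7 and 13853.5 in controls, without overlap (-0.18). Hspa1a, an inducible Hsp70, gave 405.2, 389.9 and 404.5 in Harlequin and 446.1, 514.3 and 437.7 in controls, also without overlap (-0.21). Hspa1b, another inducible Hsp70, was brighter, with means of 1263 in Harlequin and 1203 in controls, and overlapped (0.10). Hspa4 differed by -0.27 and overlapped.

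**Figure D4:**
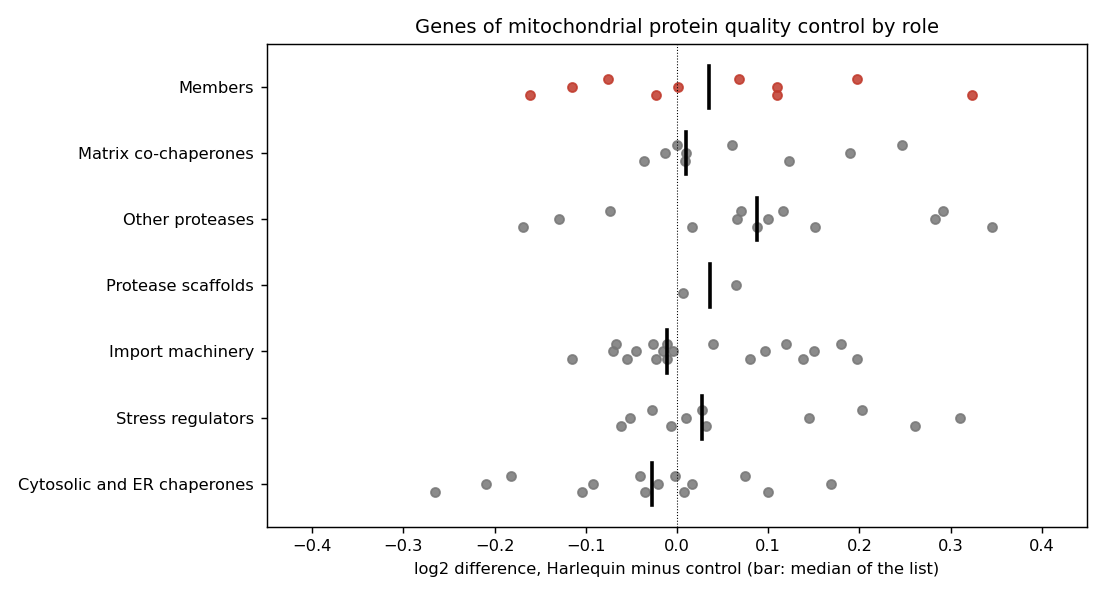
Log2 difference between the genotypes, Harlequin minus control (horizontal axis), of the 10 members (red) and of 68 further genes by role (grey), with a bar at the median of each list. All points lie between -0.27 and 0.35. The list labelled matrix co-chaperones also holds the assembly factor Bcs1l and the disaggregase Clpb.

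The spread between mice differed among these genes. The residual SD of the 10 members ran from 0.08 to 0.19 on the log2 scale with a median of 0.12, where 7199 genes of the same signal range had a median of 0.151. Lonp1 (0.153), Yme1l1 (0.172), Afg3l2 (0.178) and Spg7 (0.190) lay above that value and the other members below it. The gap between the medians was not tested. Control mice were the more even group for Lonp1 (coefficient of variation 15.8% in Harlequin and 0.270% in controls), Clpp (9.07% in Harlequin and 0.339% in controls) and Spg7 (19.2% in Harlequin and 4.99% in controls). Harlequin mice were the more even group for Htra2 (1.06% in Harlequin and 11.7% in controls), Yme1l1 (8.45% in Harlequin and 14.3% in controls) and Hspd1 (5.27% in Harlequin and 9.28% in controls). With 3 arrays in each group these spreads are loosely known, and so few arrays limit how precisely any difference is known.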

How the data were processed

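Each deposited table gives 1 linear intensity for each of 45101 probe sets, scaled by the authors or their software so that each array's mean, after leaving out the lowest and highest 2%, is 500 (found from the values). The program that summarised the probes is not given in the sources used here. Per the labels' protocols, 3 µg of total RNA per mouse went into labelled cRNA. Probe sets were named from the platform annotation, and 64 control probe sets were left out. The 932 probe sets annotated to several genes stood for no gene.

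Values were taken as log2(intensity + 16), which understates differences of dim probe sets. Each gene was represented by its probe set with the highest mean, kept above the 40th percentile (a signal of 61.1), and tested in limma 3.58.1 (R 4.3.3) with an intensity trend, Harlequin minus control, two-sided, with Benjamini-Hochberg adjustment over all genes and a threshold of 0.05. All 27022 probe sets above the filter were tested likewise. The genes the text names are all members with every probe set, Aifm1, 3 genes of smallest p per list and Omp, Gnal and Cnga2. Phb2 and Stoml2 are the tested part of the scaffold list, which also named Phb, to which no probe set was matched. Hba-a1, Hspa1b and Atf5 were named after their values were seen. The members, lists and tests were chosen with earlier results of these data known. The fits were tested on simulated data. Marker lists of mature and immature neurons, sustentacular, basal, ciliated, muscle and brain cells overlapped between genotypes in summed signal. The labels call the arrays biological replicates from separate mice. Permutation tests used scipy 1.17.1. Promoters came from RefSeq (GRCm38.p6).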

Additional observations from a re-analysis of the deposited data

How the results depend on the processing

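Over 18 alternatives the count of members that passed limma stayed at 0, with adjusted p values of 0.892 or more (1 member at an unadjusted p under 0.05, or 0 without Harlequin replicate 1, control replicate 1 or control replicate 2, and without control replicate 3 it was Yme1l1 in place of Lonp1), and so did the counts for the other quality control genes, the probe sets and the probe set pairs where these were run. Lonp1, Htra2, Clpp and Hspa9 kept their direction under every alternative run, and with 1 array left out Hspa9 ran between -0.16 and -0.058, Clpp between 0.039 and 0.16, Lonp1 between 0.20 and 0.39 and Htra2, which had no value without the suffixes _s_at and _x_at, between 0.11 and 0.28. Of 179 values 17 changed sign. With the mean over probe sets these were Hspe1 (0.045), Clpx (0.051), Yme1l1 (0.039), Afg3l2 (-0.069) and Spg7 (-0.063), and without _s_at and _x_at probe sets Hspe1 (0.11) and Afg3l2 (-0.029). Hspd1 was at -0.0028 with quantile normalization and -0.024 with array weights, and Hspe1 at 0.0074 with median scaling. Leaving out 1 array moved Hspd1 between -0.076 and 0.052, Hspe1 between -0.080 and 0.056, Afg3l2 between -0.061 and 0.16, Spg7 between -0.035 and 0.22 Clpx between -0.15 and -0.015, Yme1l1 between -0.27 and -0.067 and the members' median between -0.03 and 0.07. The correlation of Afg3l2 with Spg7 was 0.16 with median scaling and 0.79 with the mean over probe sets. That mean, here and for the signs above, took in every probe set of a gene. It so included 1454003_at of Afg3l2 (log2 difference -0.25) and 1441585_at of Spg7 (-0.24), which lay under the filter. What moved the correlation was not tested.

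Over all genes 4 passed, and 0 did without an intensity trend (643 at an unadjusted p under 0.05) or with the replicate number as a block (541). Leaving out 1 array gave 0 to 3. Aifm1 was at -2.20 in both of those fits (adjusted p = 0.0887 without the trend and 0.0605 with the replicate block), and between -2.40 and -2.08 with 1 array left out, where its adjusted p ran from 0.00145 to 0.097. The replicate numbers share no stated source. Deviations of same-numbered arrays correlated at -0.237, -0.03 and 0.058 across genes, so the numbers were not taken as pairs, and the block changed no call of a member. The ratio of probe sets was added after seeing the data.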
